A study of Mus musculus with 3 samples.

Results

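Mouse genes of the leukotriene and lipoxygenase pathway were followed across 3 one-colour microarrays of cultured mast cells, grown from mouse bone marrow (BMMCs). The 8 genes are Pla2g4a, Alox5ap, Alox5, Lta4h, Ltc4s, Abcc1, Alox12 and Alox15, taken by the gene name in the scanner files, and they were read by 9 of the 39429 non-control probes on the array, 1 for each gene and 2 for Alox12. All cells came from male C57BL/6 mice lacking Pafah2, an enzyme that cuts oxidised fatty acids off phospholipids, so the vehicle cells carry that deficiency too and no wild-type array was included. The mice were 12 weeks old by the sample labels and 8 to 12 weeks old by the housing notes. One culture received a mixture of omega-3 epoxides (17,18-EpETE with 19,20-EpDPE in a ratio of 2 to 3, at 300 nM) for 12 h. Another received GW9662, which blocks PPAR gamma, at 0.5 µM for 12 h, and the vehicle culture received DMSO for 12 h. There was 1 array per group. Nothing could therefore be tested, no p-value is given, and the spread between cultures is unknown.

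Leukotrienes are lipid mediators that mast cells make on demand. The phospholipase encoded by Pla2g4a frees arachidonic acid from membranes, the protein encoded by Alox5ap (FLAP) presents it to the lipoxygenase encoded by Alox5, and that enzyme makes leukotriene A4. Lta4h then turns leukotriene A4 into leukotriene B4, while Ltc4s joins it to glutathione to give leukotriene C4, which Abcc1 exports. Alox12 and Alox15 encode lipoxygenases that oxygenate arachidonic acid at other carbons. In mice, Alox12 is known from platelets and Alox15 from eosinophils and resident macrophages.

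The probes on which the readings rest were 60-base oligonucleotides. The 2 probes shown whole below are those whose lack of signal bears on whether Alox12 and Alox15 were measured, and for the others the last 30 bases are given. Letters are 5′ to 3′ and capitals mark ATTAAA, a variant of the polyadenylation signal AATAAA. Neither hexamer occurs in the other stretches printed.
Alox12, transcript position 1090: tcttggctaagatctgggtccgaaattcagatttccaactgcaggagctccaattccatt
Alox15, transcript position 1426: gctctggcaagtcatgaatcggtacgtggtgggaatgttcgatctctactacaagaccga
Alox12, transcript position 2173: cactaaatgtcttgctgttatgaggaacaa
Pla2g4a: gatttgttcatgccatgttacaacactatt
Alox5ap: gcttctgctcctcttcaagctgtagatgct
Alox5: taggtgcttagagaaagttcttggattaag
Lta4h: attgttgctgatttcagaaaattccttttt
Ltc4s: cagtttttaATTAAAgttcccacgacggtt
Abcc1: gatagtcccaagaatttgatgtctgggaga
Per the files, on mm9, these probes map to chr1:151676814-151676873 on the minus strand for Pla2g4a, chr5:150099347-150099406 on the plus strand for Alox5ap and chr6:116360326-116360385 on the minus strand for Alox5. Lta4h was read at chr10:92947503-92947562 on the plus strand, Ltc4s at chr11:50049972-50050031 on the minus strand and Abcc1 at chr16:14474551-14474610 on the plus strand. The Alox12 probes lie at chr11:70063629-70063688 and chr11:70055715-70055774 on the minus strand, and the Alox15 probe is listed as unmapped. The files give the position in the transcript and no exon or intron annotation. Among the 9 probes for 7 lipoxygenase genes on the array, no pair shared a run of more than 8 bases.

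Which treated array received which agent is uncertain. In the authors' deposited value table, the vehicle column matched the vehicle scanner file at 100% of spots, but the epoxide column equalled the GW9662 sample's scanner file and the GW9662 column the epoxide sample's, each also at 100% of spots. An array is called here by the sample that holds its scanner file. If the value table is right, each value given for one treated array belongs to the other treatment. A level is the log2 of a signal over its array's 75th percentile, and that percentile was at 2316 intensity units for epoxides, 2004 for GW9662 and 1916 for vehicle. On the 3 arrays, 54.6%, 53.3% and 52.3% of the 43020 non-control spots were well above background in the same order. All 10 mast cell markers were well above background on all arrays, with Kit at 5.68, 5.75 and 5.73 and Fcer1a at 6.59, 6.83 and 6.93 (epoxides, GW9662, vehicle), although Hdc, which makes histamine, was dim at -4.19, -4.51 and -4.29. Their summed level was 8.95, 9.17 and 9.33 on these arrays, and 8 of the 10 had a negative log2 ratio for epoxides over vehicle, from -0.68 for the protease gene Cpa3 to 0.10 for Hdc. Cma1 (-0.39), Fcer1g (-0.38), Fcer1a (-0.34) and Gata2 (-0.22) were among the negative ones. The remaining negative ones were Mcpt4 (-0.08), Tpsb2 (-0.08) and Kit (-0.05), and Ms4a2 had 0.09. For GW9662 over vehicle 7 of 10 were negative, from -0.42 for Cpa3 to 0.04 for Ms4a2. Over all genes measured, 9662 of 15812 were negative for epoxides over vehicle and 9134 of 15795 for GW9662 over vehicle. Of the eosinophil markers 0 of 4 were above background, and of the others 3 of 8 for neutrophils, 4 of 6 for macrophages, 3 of 3 for basophils and 4 of 5 for platelets and megakaryocytes were above it on every array. Summed levels of macrophage markers lay between -0.17 and -0.08, basophil markers between 3.66 and 3.69, and platelet markers between 4.41 and 4.51, while neutrophil markers lay at 0.42, 0.98 and 0.93. Their part in the values below was not tested. In rows 181 to 400 of the 532 rows of the array, called the marked rows below, copies of a probe disagreed more often: 7.69% of readings were at least 2-fold off their probe's median inside these rows, against 0.589% outside.

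Pla2g4a, Alox5ap, Alox5, Lta4h, Ltc4s and Abcc1, the chain from the release of arachidonic acid to the export of leukotriene C4, were all well above background on all 3 arrays. Alox12 and Alox15 were above background on none. No member differed by 2-fold, or by 1.5-fold, in any of the 3 comparisons. The error available is the spot error, the SD among copies of a probe on 1 array, with a median over 210 probes with copies of 0.0543 for epoxides, 0.0537 for GW9662 and 0.0591 for vehicle. For a log2 ratio this comes to a technical SD of 0.0803 for epoxides over vehicle, 0.0798 for GW9662 against vehicle and 0.0764 for epoxides over GW9662. Culture, labelling and hybridisation are not covered by it, and each member probe was a single spot.

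**Figure D1:**
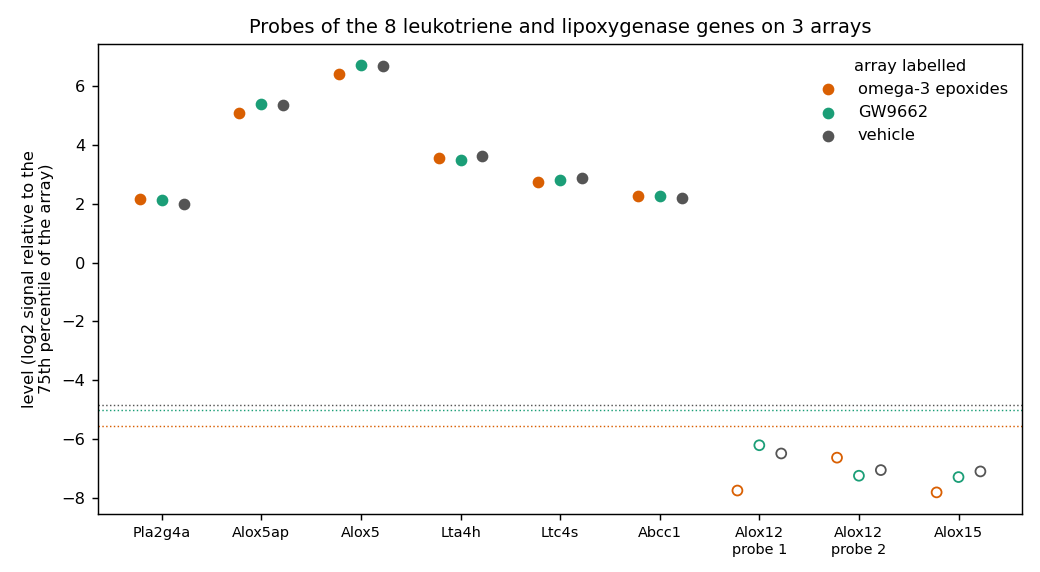
Level of each member probe (log2 signal relative to the 75th percentile of its array) on the arrays labelled omega-3 epoxides, GW9662 and vehicle, left to right within each probe, 1 point per array. Open points were not well above background, and dotted lines mark, for each array, the lowest level that passed as well above background. The points of the 6 measured genes lie between 1.99 and 6.72 and those of Alox12 and Alox15 below all 3 lines.

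Pla2g4a, the cytosolic phospholipase that starts the pathway, had levels of 2.18 on the array labelled epoxides, 2.13 on that labelled GW9662 and 1.99 with vehicle. Vehicle was the lowest of the 3. The log2 ratios were 0.19 for epoxides over vehicle, 0.14 for GW9662 against vehicle and 0.05 for epoxides over GW9662, so only the first lay beyond 2 technical SDs (0.161). In cultures measured whole, as here and below, fewer cells of a type and less RNA per cell cannot be told apart. Of all genes measured, 13.2% had a higher ratio than Pla2g4a for epoxides over vehicle and 9.19% for GW9662 against vehicle. Among the 4394 genes at least as bright as Pla2g4a, the dimmest measured member, these shares were 6.80% and 2.23%. Both ratios to vehicle were positive under each alternative tried, from 0.03 to 0.23 for epoxides and from 0.10 to 0.19 for GW9662. Settings that only change which probes, genes or rows enter could not move a bright gene with a single probe outside the marked rows. The 0.19 for GW9662 came from the authors' value table, where the treated columns are the other way round. The low end for epoxides came after removal of the trend in probe GC content and signal, where the ratio was 0.04 with all rows and 0.03 without the marked rows, less than the technical SD. The Pla2g4a probe had 35.0% GC, and across genes the ratio for epoxides over vehicle fell with probe GC content (Pearson r = -0.48 over 15812 genes, which share the arrays and are not independent replicates).

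Alox5ap, the protein that hands arachidonic acid to the lipoxygenase, had levels of 5.10, 5.40 and 5.37 (epoxides, GW9662, vehicle). Alox5 itself, the enzyme of the pathway's committed step, had 6.44, 6.72 and 6.69 on the same arrays. In both genes the array labelled epoxides was the lowest and GW9662 and vehicle lay close together. For epoxides over vehicle the log2 ratio was -0.28 for Alox5ap and -0.25 for Alox5, and for epoxides over GW9662 it was -0.30 and -0.28, each beyond 2 technical SDs. For GW9662 over vehicle both had 0.03.

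Bright genes in general had lower ratios for epoxides over vehicle. The 808 other genes at least as bright as Alox5ap had a median ratio of -0.25 for epoxides over vehicle, with quartiles at -0.35 and -0.15, and 747 of them were negative. The 148 other genes at least as bright as Alox5 had a median of -0.32. Alox5, against quartiles of -0.40 and -0.22, and Alox5ap both lay between the quartiles of genes of their brightness in that comparison. For epoxides over GW9662 Alox5 again lay between these quartiles (-0.31 and -0.12), and Alox5ap, at -0.304, lay below the first quartile of -0.294. For GW9662 over vehicle both genes, at 0.03, lay above the third quartiles of -0.019 for genes as bright as Alox5 and -0.0014 for genes as bright as Alox5ap. Before scaling, the processed signal of Alox5 was 201209 on the array labelled epoxides, 211130 on that labelled GW9662 and 197741 with vehicle, and that of Alox5ap was 79297, 84720 and 79415. Without scaling, the epoxide and vehicle arrays were thus close for both genes. With quantile normalization the ratio for epoxides over vehicle was 0.03 for Alox5 and -0.09 for Alox5ap, with cyclic loess it was -0.05 and -0.13, and after removal of the GC and signal trend it was -0.07 and 0.10. For epoxides over GW9662 these settings gave -0.05, -0.14 and -0.14 for Alox5 and -0.15, -0.20 and -0.03 for Alox5ap, of which the -0.20 with cyclic loess lay beyond 2 technical SDs (0.153). Both spots lay in the marked rows, so neither gene can be read without them. Alox5 lay in rows 181 to 200, where 2.12% of readings were at least 2-fold off, and Alox5ap in rows 201 to 220, at 3.01%. Other bands of 20 rows reached 13.9% inside the marked rows and 1.61% outside them. The summed level of the mast cell markers was also lowest on the array labelled epoxides, and its part in these ratios was not tested.

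Lta4h, which makes leukotriene B4, had levels of 3.56 on the array labelled epoxides, 3.51 on that labelled GW9662 and 3.63 with vehicle. Ltc4s, which makes leukotriene C4, had 2.76, 2.81 and 2.89 on these arrays. Vehicle was the highest for both genes, by less than 2 technical SDs. The log2 ratios for epoxides over vehicle were -0.07 for Lta4h and -0.14 for Ltc4s, and for GW9662 over vehicle they were -0.11 and -0.08. Between the treated arrays, epoxides over GW9662, Lta4h had 0.05 and Ltc4s had -0.06. After removal of the GC and signal trend, Ltc4s, whose probe has 53.3% GC, came to 0.15 for epoxides over vehicle, and Lta4h, whose probe has 35.0% GC, came to -0.18. The direction for Ltc4s thus turned with that setting. Lta4h was at 0.002 with quantile normalization and 0.01 with cyclic loess, so its direction for epoxides over vehicle turned as well. For GW9662 over vehicle Lta4h was negative under each alternative, from -0.15 to -0.07. The settings that could not move Pla2g4a could not move Lta4h either, and the -0.07 came from the value table with its treated columns exchanged.

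Abcc1, the exporter of leukotriene C4, had levels of 2.27 on the array labelled epoxides, 2.26 on that labelled GW9662 and 2.19 with vehicle. Its log2 ratios were 0.08 for epoxides over vehicle, 0.07 for GW9662 against vehicle and 0.01 for epoxides over GW9662. All were within 2 technical SDs, and both ratios to vehicle were positive under every alternative, from 0.07 to 0.19 for epoxides and from 0.07 to 0.10 for GW9662. The settings that could not move Pla2g4a could not move Abcc1 either. Pla2g4a, Lta4h, Ltc4s and Abcc1 were read outside the marked rows, so their values did not rest on those rows.

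**Figure D2:**
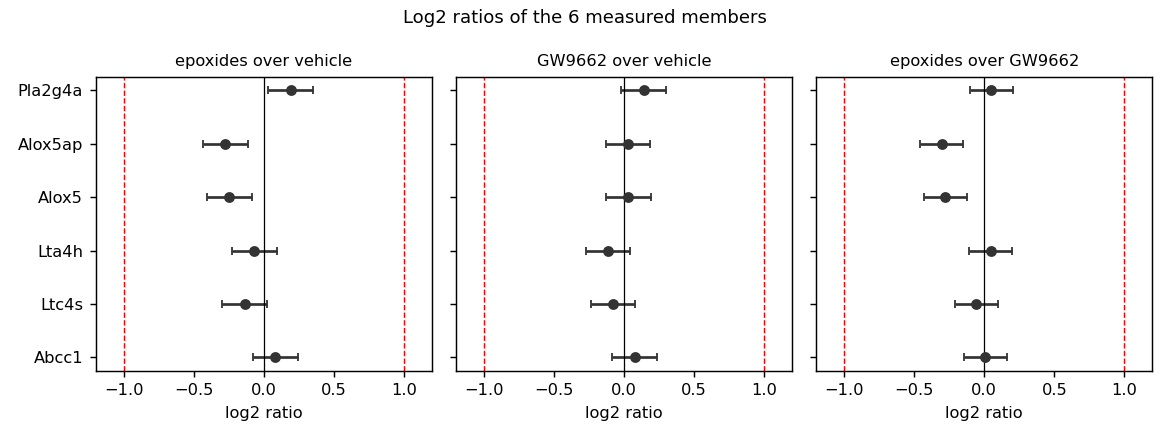
Log2 ratio of each measured member in the 3 comparisons, 1 panel each (epoxides over vehicle at the left, epoxides over GW9662 at the right). Points are single ratios of 1 array to 1 array, bars are 2 technical SDs from the spot error, and dashed lines mark 2-fold. All ratios lie between -0.30 and 0.19.

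Alox12, the platelet lipoxygenase, gave levels of -7.76, -6.22 and -6.50 at its probe at transcript position 1090 (epoxides, GW9662, vehicle). Its probe at position 2173 gave -6.64, -7.26 and -7.07. For Alox15 the levels were -7.82, -7.30 and -7.11. The lowest level that counted as well above background, above all 9 readings, was -5.57 on the array labelled epoxides, -5.03 on that labelled GW9662 and -4.84 with vehicle. These signals are not well above background, so no ratio is given for either gene, and the order of the arrays within a probe has no meaning. The Alox12 probes themselves ordered the arrays differently. All 3 spots lay in the marked rows. As the Alox15 probe is unmapped in the files and was the only one for its gene, its lack of signal says only that this probe was not well above background.

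As counts, the 6 measured members had 0 genes at least 2-fold apart in each comparison. The background of such calls was low: 2.28% of the 15812 genes measured were at least 2-fold apart for epoxides over vehicle, 0.823% of 15795 for GW9662 against vehicle and 1.16% of 16044 for epoxides over GW9662. At 1.5-fold the counts of members were also 0, against 10.2%, 1.84% and 5.73% of all genes. Those shares include dimmer genes. Of 4394 genes at least as bright as the dimmest measured member, 21 were 1.5-fold higher and 33 lower for epoxides over vehicle. The counts were 0 and 2 for GW9662 over vehicle, and 16 and 7 for epoxides over GW9662. At 2-fold, 0 were higher and 1 was lower in each comparison, so 0 of 6 members was near that background. Beyond 2 technical SDs there were 3 members of 6 for epoxides over vehicle (1 higher, 2 lower), 0 of 6 for GW9662 over vehicle and 2 of 6, both lower, for epoxides over GW9662. Over all genes 53.7% were that far from 0 for epoxides over vehicle (16.4% higher, 37.3% lower), 22.4% for GW9662 against vehicle (7.31% higher, 15.1% lower) and 46.1% for epoxides over GW9662 (13.6% higher, 32.5% lower), so the members' counts were near the background and a ratio beyond the spot error was common on these arrays. For epoxides over vehicle the members had a median log2 ratio of -0.10, against -0.073 over all genes. For GW9662 over vehicle the medians were 0.03 and -0.02, and for epoxides over GW9662 they were -0.02 and -0.056. The comparisons share arrays with each other and do not count as separate evidence.

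**Figure D3:**
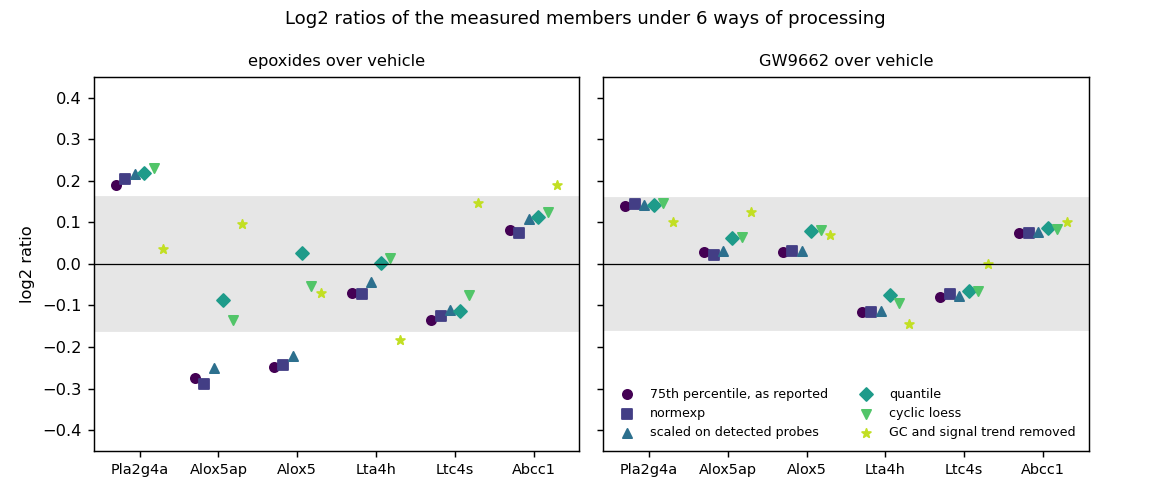
Log2 ratios of the 6 measured members for epoxides over vehicle and GW9662 over vehicle under 6 ways of processing the same spots. The grey band is 2 technical SDs on each side of 0. For epoxides over vehicle Alox5 and Alox5ap leave the band only where arrays were scaled by 1 factor, Pla2g4a in each setting but the removed trend, and Lta4h and Abcc1 only with the trend removed, while the ratios for GW9662 over vehicle stay inside it under all 6.

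Of 53 other genes of the pathway, 31 were well above background on all arrays and 20 on none. For epoxides over vehicle, 1 of 31 measured was at least 2-fold lower and 0 were higher (2.07% and 0.215% of all genes), with a median of -0.12. For GW9662 over vehicle 0 of 32 were 2-fold apart (0.355% of all genes higher and 0.469% lower, median -0.03), and for epoxides over GW9662 1 of 32 was at least 2-fold lower (median -0.11, with 0.206% of all genes higher and 0.954% lower).

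Among the leukotriene receptors, Ltb4r1, the high-affinity receptor of leukotriene B4, had levels of 1.63 on the array labelled epoxides, 1.86 on that labelled GW9662 and 1.95 with vehicle, with log2 ratios to vehicle of -0.32 and -0.09. After removal of the GC and signal trend these were -0.03 and -0.01. Ltb4r2, the low-affinity receptor, was dim at -4.39, -3.74 and -3.24. It was the gene called 2-fold lower for epoxides over vehicle, at -1.15, and had -0.50 for GW9662 over vehicle. Its single spot lay in the marked rows, and its ratio for epoxides over vehicle was -0.67 with the GC and signal trend removed and between -0.97 and -0.87 with normexp, quantile normalization and cyclic loess. Cysltr2, a receptor of cysteinyl leukotrienes, was also dim, at -3.71, -3.57 and -3.56, with ratios to vehicle of -0.15 and -0.01. Cysltr1, the other cysteinyl leukotriene receptor, and Oxgr1 and Gpr17, G protein coupled receptors linked to these ligands, were not well above background on any array.

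Of the genes that process or break down leukotrienes, 4 of 9 were measured on all arrays. Their ratios ran from -0.61 to 0.13 (epoxides over vehicle) and from -0.18 to 0.05 (GW9662 over vehicle). Ggt5, an enzyme that converts leukotriene C4 to D4, was dim at -3.88, -3.52 and -3.34, with ratios of -0.54 for epoxides over vehicle and -0.18 for GW9662 over vehicle. Ggt1, another enzyme of that step, and the dipeptidase genes Dpep1, Dpep2 and Dpep3 were not well above background on any array. Mgst2 and Mgst3, relatives of Alox5ap and Ltc4s in the membrane glutathione transferase family, were measured, with ratios of -0.03 and -0.43 for epoxides over vehicle and -0.06 and -0.10 for GW9662 over vehicle. The second Mgst3 probe, which lay in the marked rows, had -0.12 and -0.03. Its mean level was -0.89, against -0.72 for the probe that stood for the gene.

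The other lipoxygenases were dim or below background. Alox12b, a skin lipoxygenase, had levels of -4.01, -3.57 and -3.39 and a ratio of -0.62 for epoxides over vehicle, while its second probe had -1.01. The -0.62 came to -0.25 after removal of the GC and signal trend and -0.38 with quantile normalization. Alox12e had levels of -4.55 with GW9662 and -3.85 with vehicle, a ratio of -0.70 for GW9662 over vehicle, and was not well above background on the array labelled epoxides. There it was at least 3.28-fold lower than with vehicle, setting the dim array at the lowest level called well above background. Aloxe3, the partner of Alox12b in skin, had levels of -5.35 on the array labelled epoxides and -2.74 on that labelled GW9662. That is a log2 ratio of -2.61 for epoxides over GW9662, or -1.56 with normexp background correction, and its epoxide level was near the lowest well above background on that array (-5.57). GW9662 was at least 4.30-fold higher than vehicle, where Aloxe3 was not well above background. Alox12e and Aloxe3 each had a single spot, in rows 310 and 347, so both lay in the marked rows. Their part in these values was not tested.

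Genes that return arachidonic acid to membranes were all measured, 5 of 5, with ratios from -0.15 to 0.48 for epoxides over vehicle (3 positive, 2 negative) and from 0.002 to 0.20 for GW9662 over vehicle (5 positive). For epoxides over GW9662 they ran from -0.20 to 0.28 (3 positive, 2 negative). Over all genes measured, 6150 of 15812 were positive for epoxides over vehicle and 6661 of 15795 for GW9662 over vehicle. For epoxides over GW9662 it was 6237 of 16044. Of the 5 ratios for GW9662 over vehicle, only that of Acsl3 lay beyond 2 technical SDs (0.160). Acsl3, a long-chain acyl-CoA synthetase, had the highest ratio of the pathway list in each comparison, with 0.48 for epoxides over vehicle, 0.20 for GW9662 against vehicle and 0.28 for epoxides over GW9662. With the treated arrays assigned as in the authors' deposited table the last of these was -0.28, the lowest of the list, and Aloxe3 was the highest at 2.61. After removal of the GC and signal trend, the ratios of Acsl3 came to 0.02, 0.09 and -0.07, in the order given above. The Acsl3 probe lay in the marked rows. Abcc4, a relative of Abcc1 that exports prostaglandins, came next for epoxides over vehicle, at 0.21, and for epoxides over GW9662, at 0.18. Anxa1, annexin A1, came next for GW9662 over vehicle, at 0.16. Partners and kinases of the Alox5 and Pla2g4a enzymes (Cotl1, Anxa1, 3 MAP kinases and 2 kinases they activate) were measured in 7 of 7 cases, with ratios from -0.23 to 0.14 (epoxides over vehicle) and from -0.05 to 0.16 (GW9662 over vehicle). None of the 3 receptors of lipoxins and resolvins (Fpr1, Fpr2 and Cmklr1) was well above background.

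**Figure D4:**
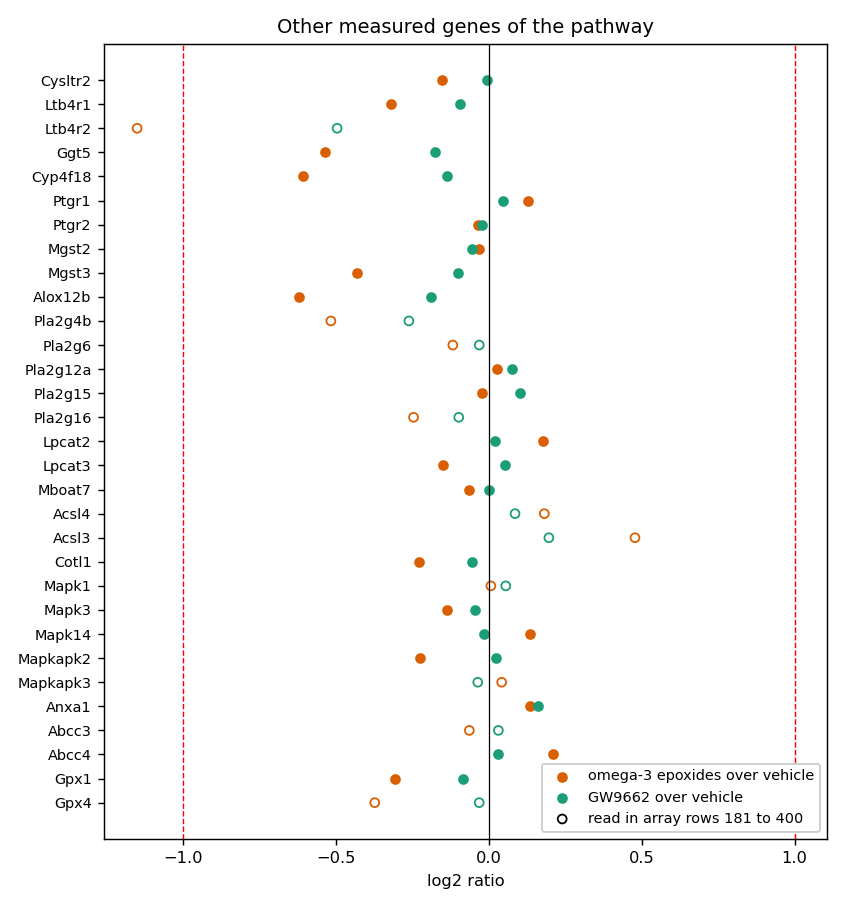
Log2 ratios of the 31 other pathway genes measured on all arrays, for epoxides over vehicle and GW9662 over vehicle, 1 point per ratio. Open points were read in array rows 181 to 400 and dashed lines mark 2-fold. Ltb4r2 for epoxides over vehicle is the only point past a dashed line, at -1.15.

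Many other genes had the same pair of ratios as a member. By distance over the log2 ratios for epoxides over vehicle and GW9662 over vehicle, among 6532 genes measured on all arrays, the genes nearest to Alox5 were Sh3bgrl3 and Plgrkt, and those nearest to Alox5ap were Exosc10 and Gnl3. The nearest to Pla2g4a were Shcbp1 and Wdr43, to Lta4h Zbtb40 and Ctps, to Ltc4s Ift122 and Gstt3, and to Abcc1 Cdv3 and Ctnnd1. Between 216 genes (for Alox5ap) and 991 genes (for Ltc4s) lay no farther than the technical SD, so this likeness, over 3 arrays, singles out no gene.

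Promoters of 5 of the 8 genes were matched in the RefSeq table (GRCm38.p6, 250 bases before to 50 after the start, 6 promoters in all). They were searched on both strands for AGGTCA, the half-site bound by PPAR gamma and its partner, since GW9662 acts on that receptor. AGGTCA was in 1 of the 6, a Pla2g4a promoter, and in 16.3% of all 32851 promoters. The spaced repeat AGGTCANAGGTCA was in 0 of the 6 and in 0.0396% of all promoters. GGGCGG, the GC box of SP1 factors, was in the promoters of Alox5 and Alox12, and in 35.7% of all. A match is a description of letters and not of binding. The 2 stretches below, of 100 bases each, show the match in capitals in the promoters of Pla2g4a, the member that holds AGGTCA, and of the lipoxygenase that gives the pathway its product. They lie at chr1:149961441-149961540 and chr6:116461179-116461278, both on the minus strand of GRCm38.p6.
Pla2g4a, AGGTCA starting 206 bases before the start: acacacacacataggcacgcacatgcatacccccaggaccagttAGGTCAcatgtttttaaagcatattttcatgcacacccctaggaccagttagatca
Alox5, GGGCGG starting 35 bases before the start: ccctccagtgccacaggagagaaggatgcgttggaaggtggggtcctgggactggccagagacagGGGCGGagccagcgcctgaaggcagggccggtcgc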

How the data were processed

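Total RNA (200 ng per labelling, per the labels) from 3 cultures, 1 per group, was labelled with Cy3 and hybridised, and Agilent Feature Extraction 11.5.1.1 gave the spot values, per the submitters' processing notes. Per the file headers, gProcessedSignal, gMeanSignal and gBGMedianSignal are linear intensity values. The first had background subtraction and detrending within each array, with no scaling across arrays. The authors' deposited value table holds a linear ratio, which equals the processed signal over a constant for each array (constant within 0.001). Its column medians were 0.0500 for epoxides, 0.0413 for GW9662 and 0.0524 for vehicle, and whether its treated columns or the scanner files carry the right labels is not given in the sources used here.

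Each spot's level was log2 gProcessedSignal minus log2 of the 75th percentile over the non-control spots of its array. Outlier spots (221, 251 and 230 on the epoxide, GW9662 and vehicle arrays, none of them a member) were left out, no spot was saturated, and copies of a probe were averaged. Where a gene had several probes, that of highest mean level stood for it, and it was measured if the majority of copies exceeded background (well above) on both arrays compared. Probes outside the lists were named through the RefSeq table where it holds their accession (28330 of 39429). A ratio of 2-fold was called. Named genes are the 8 members, the leukotriene receptors, pathway genes called, the 2 highest and 2 lowest of the pathway list in each comparison, the 2 genes nearest to each member (level at or above the median of detected probes), and markers above background on any array. Other genes named were chosen after their values were seen. The members and lists were chosen with earlier results of these data known. Array rows were marked in bands of 20 where, among probes with at least 5 copies, 2% or more of readings were 2-fold from their probe's median. Functions were tested on simulated data. Alternatives used limma 3.58.1 in R 4.3.3 (normexp with offset 50, quantile, cyclic loess) and Python 3.11.15.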

Additional observations from a re-analysis of the deposited data

How the results depend on the processing

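No paired analysis was possible because each group has 1 array. The number of arrays limits the precision, and only spot error is known. Counts of members 2-fold higher or lower were 0 in every comparison under each alternative, 1.5-fold included, except with no filter on dim probes, where 1 was lower for epoxides over vehicle and 1 for epoxides over GW9662; that member was Alox12, which is below background on all arrays. The members' median for epoxides over vehicle (-0.10) was 0.014 with quantile normalization, -0.020 with cyclic loess, 0.029 in the authors' value table, -0.19 with no filter, 0.0066 without rows 181 to 400, 0.066 with the GC and signal trend removed and 0.094 with both. For GW9662 over vehicle (0.03) it was -0.10 in the value table, and for epoxides over GW9662 (-0.02) it was -0.17 with no filter. The other settings moved these medians by less than the technical SD. Without rows 181 to 400 only 4 members can be read. Of the pathway list, the count of 1 for epoxides over vehicle was 0 with normexp, quantile normalization, cyclic loess, the value table, genes at or above the median level, without the rows, with the trend removed and with both, 5 with no filter and 3 at 1.5-fold. For GW9662 over vehicle (0) it was 1 in the value table, with no filter and at 1.5-fold. For epoxides over GW9662 (1) it was 0 with only the brighter genes (median level or above), without the rows and with both changes, 4 with no filter and 2 at 1.5-fold. In the value table, whose treated columns are the other way round from the scanner files, Aloxe3 had 2.61 for epoxides over GW9662. Except where fewer genes or spots enter by construction, the cause was not tested.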
